A study of Mus musculus with 11 samples.

Results

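The AP-1 and immediate early genes were followed in spinal cord and in fetal fibroblasts of wild-type and Morc2a p.S87L heterozygous mice. A list of 10 genes was set by name, with earlier results of these data known. It comprised the Fos family (Fos, Fosb, Fosl1, Fosl2), the Jun family (Jun, Junb, Jund), and the early response genes Egr1, Ier2 and Zfp36. All 10 were found among the 55487 gene identifiers of the deposited table. In S87L spinal cord Zfp36 rose 1.57-fold and Fos fell to 0.820 of wild-type, and in S87L fibroblasts Fosl1 rose 1.61-fold, Junb 1.32-fold and Fosl2 1.15-fold. These folds are on the log2(FPKM + 0.5) scale, where FPKM is the fragment count per length of gene and per size of library, and that scale understates the change of low genes. The Fos fall in cord and the Fosl2 rise in fibroblasts rested on most or all of the libraries, as described with each gene. None of the fibroblast calls among the 10 genes was made when a term for replicate number was the only change to the fit. With each library's GC and length trend removed as well, 1 was made, that of Junb.

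MORC2A is an ATPase that works with the HUSH complex in silencing chromatin, and variants of it that cause a neuropathy are the subject of the study. All libraries came from C57BL/6 mice that were either wild-type or heterozygous for p.S87L, a serine to leucine change, so the S87L samples carry 1 wild-type allele as well. There were 3 wild-type and 3 S87L spinal cord libraries, and 3 wild-type and 2 S87L libraries of mouse fetal fibroblasts (MEF), cells grown in culture from fetuses. The sources used here give no treatment, age or culture condition. They do not say whether replicate libraries stem from different animals or cultures, so p-values measure only the spread between libraries, which may be technical. Spinal cord is a mixture of cells, and fewer cells of a type cannot be told apart from less RNA per cell in such bulk samples.

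AP-1 is a dimeric transcription factor in which a Jun protein pairs with a Fos protein or with another Jun protein through a leucine zipper. Several of its genes, like Egr1 and Ier2, belong to the immediate early class. Cells transcribe genes of that class within minutes of a growth factor, a depolarisation or a stress without first making protein. They do so through serum response factor and cAMP response factors bound near the start site. Messages of that class are short lived, in part because AU-rich elements in the 3′ untranslated region (UTR) recruit ZFP36. This RNA-binding protein directs messages to deadenylation and is itself made in the early response.

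Promoter sequence bears on how these genes respond, so windows from 250 bases before to 50 bases after the RefSeq start (GRCm38.p6) were searched on both strands. The table held 7 of the 10 genes, and Fosl1, Egr1 and Ier2 were not among them. The window of Jund ends before its GENCODE gene begins. A CArG box, the site of serum response factor, was found in Zfp36 alone of the 7, against 1.63% of all 32851 windows. The core motif of the cAMP response element, TGACG, was found in Fos, Fosb and Junb, against 20.8% of windows. The full element TGACGTCA (1.79% of windows, each of which also holds the core motif) and the AP-1 site TGANTCA (7.81%) were found in none of the 7. A match describes letters and not a bound site, and a missing match says only that these letters are not in that window. The matches in Zfp36, Fos and Junb, 3 of the genes called below, are shown 5′ to 3′ on the strand of the gene, with the motif in capitals.

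Zfp36, CArG box: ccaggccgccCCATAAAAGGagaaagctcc
Fos, core motif: ttccgcccagTGACGtaggaagtcc
Junb, core motif: ttcctgacagTGACGcgagccgcct

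The Zfp36 stretch lies at chr7:28379267-28379296 on the minus strand, with the box starting 58 bases before the RefSeq start. It falls in an exon of the GENCODE gene model, which begins further upstream. The Fos stretch lies at chr12:85473814-85473838 on the plus strand, with the core motif 66 bases before the start, and another lies 129 bases before it. The Junb stretch lies at chr8:84978840-84978864 on the minus strand, 106 bases before the start. Both lie just outside their GENCODE genes.

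At the other end of the message, the AU-rich nonamer TTATTTATT, the core that ZFP36 proteins favour, was found in the 3′ UTRs of Fos, Fosl2 and Zfp36, against 7.65% of the 21037 genes with a 3′ UTR in the GENCODE annotation (GRCm38). These 3 genes were each called in 1 tissue, and their sites are shown with the nonamer in capitals.

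Fos: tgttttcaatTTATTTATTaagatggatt
Fosl2: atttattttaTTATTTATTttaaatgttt
Zfp36: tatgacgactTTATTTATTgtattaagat

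The sites lie at chr12:85477103-85477131 (plus strand), chr5:32156871-32156899 (plus strand) and chr7:28376951-28376979 (minus strand). The shorter pentamer ATTTA, which the nonamer contains, was found in 9 of the 10 genes, against 65.2% of all genes. Fosl2 held 8 copies in 4653 bases of 3′ UTR, Fos and Jun held 4 each, and Ier2 held none. Fosl1 held 1 copy in 638 bases and Junb 2 in 485, and neither held the nonamer.

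Depth was recovered from the steps of the FPKM values and came to 15.35 to 23.53 M reads in cord libraries and 12.08 to 15.05 M in MEF libraries. The labelled tissues carried their markers. The 12 neuron and glia markers summed to 4456 to 4877 FPKM in cord and to 4.58 to 5.72 in MEF, where the cholinergic gene Chat and the myelin gene Mog were listed at 0 in every library. The 10 fibroblast markers summed to 4333 to 4799 FPKM in MEF. S87L cord libraries differed from wild-type in markers of other cell types. The sum of 12 skeletal muscle genes was 18.3 to 23.5 FPKM in wild-type and 83.0 to 89.8 in S87L cord, and all 12 were called higher. That of 10 meningeal and fibroblast genes was 23.9 to 26.4 and 47.8 to 50.1 (7 of 9 tested called higher), that of 11 microglia and macrophage genes 293 to 314 and 376 to 387 (8 of 11), and that of 6 red blood cell genes 337 to 372 and 409 to 448 (3 of 6). The 10 endothelial and pericyte genes summed to 73.1 to 75.2 and 75.1 to 75.8 FPKM (1 higher, 1 lower), and 3 of the 12 neuron and glia genes were called lower, and 0 to 2 of the 12 without any 1 library. In cord the 10 fibroblast markers used for MEF summed to 204.4 to 209.2 FPKM in wild-type and to 199.8 to 201.7 in S87L. Of the 8 tested there, 4 were called higher and 1 lower, so the sums of the 2 fibroblast lists moved in opposite directions. No muscle, meningeal or microglial defining marker was at 0 in every library of a cord group. Of all genes tested in cord, 5.17% were called higher and 7.71% lower. The part of these cell types in the cord results below was not tested.

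Each tissue was fitted alone with limma over genes whose mean FPKM reached 0.5, and calls were made where the Benjamini-Hochberg adjusted p, taken across every gene of that fit, was under 0.05. In spinal cord 8 of the 10 genes passed the filter, and limma called 2 of them, Zfp36 higher and Fos lower. The background is that 12.9% of all 15648 genes tested in cord were called, 5.17% higher and 7.71% lower. In MEF 9 genes passed and limma called 3, Fosl1, Junb and Fosl2, all higher, where 11.2% of 13773 genes were called, 4.91% higher and 6.32% lower. No gene of the 10 was called in both tissues. Groups did not overlap for 3 of the 10 genes in cord, among them Fosb, which was below the filter, and for 4 in MEF, all tested. The share over all genes tested was 35.15% in cord and 45.76% in MEF.

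**Figure D1:**
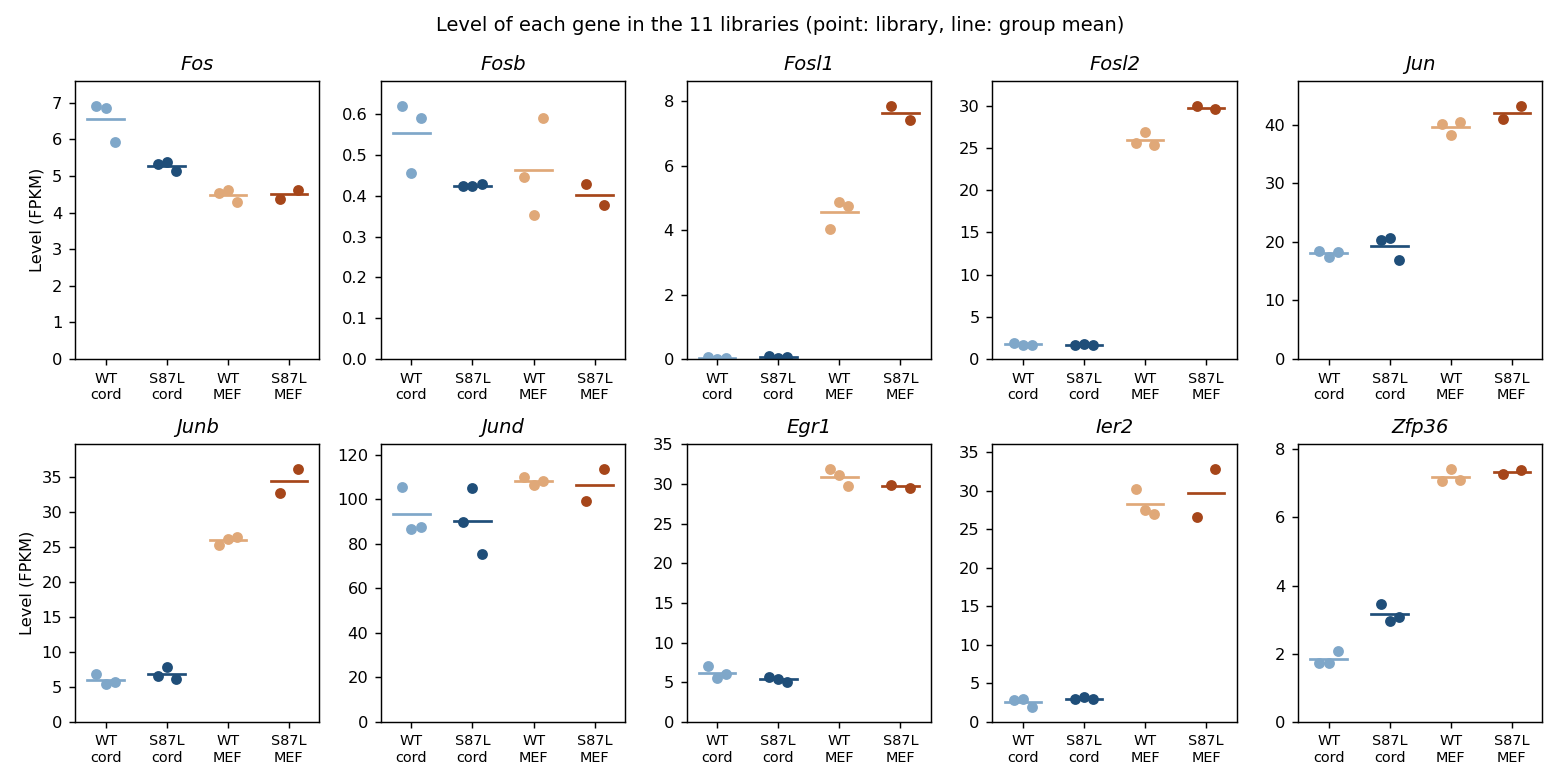
Level in FPKM (vertical axis, linear, from 0) of each of the 10 genes in the 11 libraries, by group (horizontal axis); points are libraries and lines are group means. Zfp36 in S87L cord lies between 2.97 and 3.47 FPKM, above the wild-type libraries at 1.72 to 2.09, and Fosl1 in S87L MEF lies at 7.41 and 7.84, above the wild-type libraries at 4.03 to 4.87.

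The Fos family supplies the partners that stabilise AP-1 on DNA. Fos (chr12:85473890-85477273), the prototype immediate early gene, stood at 6.90, 6.87 and 5.92 FPKM in wild-type cord replicates 1 to 3. In S87L cord it stood at 5.31, 5.39 and 5.15 FPKM. All S87L libraries were below all wild-type libraries, and wild-type replicate 3 lay nearest to them. The fall was 0.29 on the log2 scale (log2 fold change -0.29, 95% interval -0.44 to -0.13, SE 0.07, limma adjusted p = 0.0306). The call was lost without wild-type replicate 1 (adjusted p = 0.0692) or 2 (0.0916), or without S87L replicate 1 (0.0908), 2 (0.0848) or 3 (0.0838), and held without wild-type replicate 3 (0.0170). It was also lost without the filter (0.0685) and with quantile normalization (0.05004), while the log2 fold change stayed between -0.35 and -0.23 in every setting run. Muscle, meningeal and microglial marker sums were higher in the same S87L libraries (83.0 to 89.8, 47.8 to 50.1 and 376 to 387 FPKM), and their part in the Fos value was not tested.

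In MEF, Fos stood at 4.54, 4.62 and 4.29 FPKM in wild-type, beside 4.38 and 4.63 in S87L. The groups overlapped, and the log2 fold change was 0.00 with a 95% interval of -0.14 to 0.15 (adjusted p = 0.966). The interval holds neither the cord estimate of -0.29 nor a change of its size upward, yet the difference between tissues, 0.29 (limma interaction adjusted p = 0.0579), missed the threshold. It was called without wild-type cord replicate 3 (0.0146) and after removal of each library's GC and length trend (0.0120).

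Fosb (chr7:19302696-19310051), whose splice forms include the long lived DeltaFosB of neurons, was low throughout, at 0.455 to 0.619 FPKM in wild-type cord and 0.423 to 0.429 in S87L cord. Those groups did not overlap, but the mean over both, 0.490 FPKM, fell below the filter, and Fosb was not tested in cord. A fit with no filter gave a log2 fold change of -0.19 (SE 0.10, limma adjusted p = 0.358). The values rested on 42 to 70 recovered reads per cord library. In MEF, Fosb stood at 0.353 to 0.591 FPKM in wild-type and at 0.429 and 0.377 in S87L, which overlapped, and it was again below the filter.

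Fosl1 (chr19:5447547-5455946) encodes FRA1, a Fos protein without the transactivation domain of FOS that is linked to proliferating and migrating cells. Wild-type MEF held 4.03, 4.87 and 4.76 FPKM, on 112 to 139 recovered reads a library. S87L MEF held 7.84 and 7.41 FPKM, on 220 and 173 reads. Both S87L libraries lay above all wild-type libraries. The log2 fold change was 0.69 (95% interval 0.48 to 0.90, SE 0.09, limma adjusted p = 0.00633), and the call held without any 1 of the 5 libraries (adjusted p up to 0.0421, log2 fold change 0.61 to 0.73). With a term for replicate number in the fit Fosl1 was not called (0.72, limma adjusted p = 0.0573). An opposite-strand gene, Ccdc85b, overlaps Fosl1, and it was not called (4.36 to 5.11 FPKM in wild-type and 4.07 to 5.56 in S87L MEF, log2 fold change 0.01, adjusted p = 0.962).

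Cord libraries held almost no Fosl1. Its recovered reads were 2, 0 and 1 in the wild-type libraries, beside 4, 2 and 2 in the S87L libraries, and 0 reads in wild-type replicate 2 allows up to 0.0997 FPKM. Scaled by the library size used in FPKM, the ratio of recovered reads in S87L to wild-type cord was 2.08. Its 95% interval was 0.498 to 12.2, which covers counting error only, so no difference was detectable at this depth. The interaction was called in the 11-library fit (0.59, SE 0.12, limma adjusted p = 0.0109), but it depends on how so few reads are scaled. With a pseudocount of 0.1 it was 0.37 (adjusted p = 0.424), with voom on recovered reads it was -0.17 (0.913), and without S87L MEF replicate 1 it was 0.56 (0.0574).

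Fosl2 (chr5:32135801-32157842) encodes FRA2, the Fos family member of matrix-producing and differentiating mesenchymal cells. Wild-type MEF held 25.5, 26.9 and 25.3 FPKM and S87L MEF held 29.9 and 29.6. The groups did not overlap, and the log2 fold change was 0.20 (95% interval 0.09 to 0.30, SE 0.04, limma adjusted p = 0.0382). The call was lost without wild-type replicate 1 (0.128), 2 (0.0792) or 3 (0.127), or without S87L replicate 1 (0.101) or 2 (0.0619), with the log2 fold change at 0.18 to 0.22. It was also lost with no filter (0.0837), with library weights (0.0793), with a term for replicate number (0.243) and in the fit of all 11 libraries (0.0528). Cord values overlapped, at 1.89, 1.70 and 1.64 FPKM in wild-type and 1.64, 1.82 and 1.62 in S87L (log2 fold change -0.03, 95% interval -0.21 to 0.14, adjusted p = 0.816). The interaction was 0.23 (adjusted p = 0.0957).

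The Jun family can pair within itself and is needed for any AP-1 dimer. Junb (chr8:84974484-84978718), which also restrains JUN, stood at 25.3, 26.2 and 26.5 FPKM in wild-type MEF and at 32.7 and 36.2 in S87L MEF. Each S87L library exceeded each wild-type library, S87L replicate 2 by more. The log2 fold change was 0.40 (95% interval 0.27 to 0.53, SE 0.05, limma adjusted p = 0.00842), and the call held without any 1 of the 5 libraries (adjusted p up to 0.0390). With a term for replicate number in the fit Junb was not called (0.41, limma adjusted p = 0.0665). It was called with that term when the GC and length trend was removed as well. Prdx2, an opposite-strand gene that overlaps the end of Junb and is more abundant, stood at 69.1 to 74.4 and 69.6 to 78.1 FPKM (log2 fold change 0.04, adjusted p = 0.720). Junb in cord stood at 6.84, 5.42 and 5.70 FPKM in wild-type and 6.54, 7.81 and 6.07 in S87L, overlapping groups with a log2 fold change of 0.17 (95% interval -0.08 to 0.43, adjusted p = 0.346). The difference between the Junb effects of the tissues was not called (interaction 0.23, 95% interval -0.09 to 0.55, adjusted p = 0.327). With the GC and length trend removed the interaction was called (0.31, adjusted p = 0.0275).

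Jun (chr4:95049034-95052222), the strongest activator of the family, was not called in either tissue. In MEF it stood at 40.2, 38.3 and 40.5 FPKM in wild-type and 41.0 and 43.1 in the S87L libraries. The groups did not overlap, but the step was small (log2 fold change 0.08, 95% interval -0.03 to 0.19, adjusted p = 0.287), and it was called once the GC and length trend was removed (0.19, adjusted p = 0.0246). In cord the values were 18.4, 17.4 and 18.2 FPKM in wild-type and 20.3, 20.6 and 16.9 in S87L, with S87L replicate 3 below and the others above every wild-type library (log2 fold change 0.09, 95% interval -0.09 to 0.26, adjusted p = 0.478).

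Jund (chr8:70698949-70700616), the constitutive member that is least dependent on stimulation, was the most abundant in every library. Cord libraries held 105, 86.5 and 87.5 FPKM in wild-type, beside 89.6, 105 and 75.6 with S87L. The groups overlapped, with S87L replicate 3 below every wild-type library (log2 fold change -0.06, 95% interval -0.35 to 0.24, adjusted p = 0.808). In MEF the values were 110, 106 and 108 FPKM in wild-type and 99.1 and 114 in S87L, which lay on both sides of them (log2 fold change -0.03, 95% interval -0.17 to 0.12, adjusted p = 0.823).

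The spread of Jund between cord libraries resembled that of genes of like GC content. Jund varied by 11.4% (coefficient of variation) among wild-type cord libraries where counting alone gives 2.01%. On the log2 scale its deviations from the group mean were 0.18, -0.10 and -0.08 in wild-type replicates 1 to 3. Those of the 22 genes within 1 percentage point of its GC content, Jund included, had medians of 0.18, -0.10 and -0.07. In S87L replicates 1 to 3 the deviations of Jund were 0.01, 0.23 and -0.24, beside medians of 0.05, 0.17 and -0.19. Wild-type replicate 1 and S87L replicate 2 were high, and S87L replicate 3 was low, for the gene and for its GC neighbours alike. For Junb, with 182 such genes, Junb included, deviations of 0.18, -0.13 and -0.06 in wild-type stood beside medians of 0.13, -0.07 and -0.05. In S87L replicates 1 to 3 Junb had -0.05, 0.19 and -0.15 beside 0.05, 0.09 and -0.14, so replicate 1 lay on the other side of its neighbours.

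**Figure D2:**
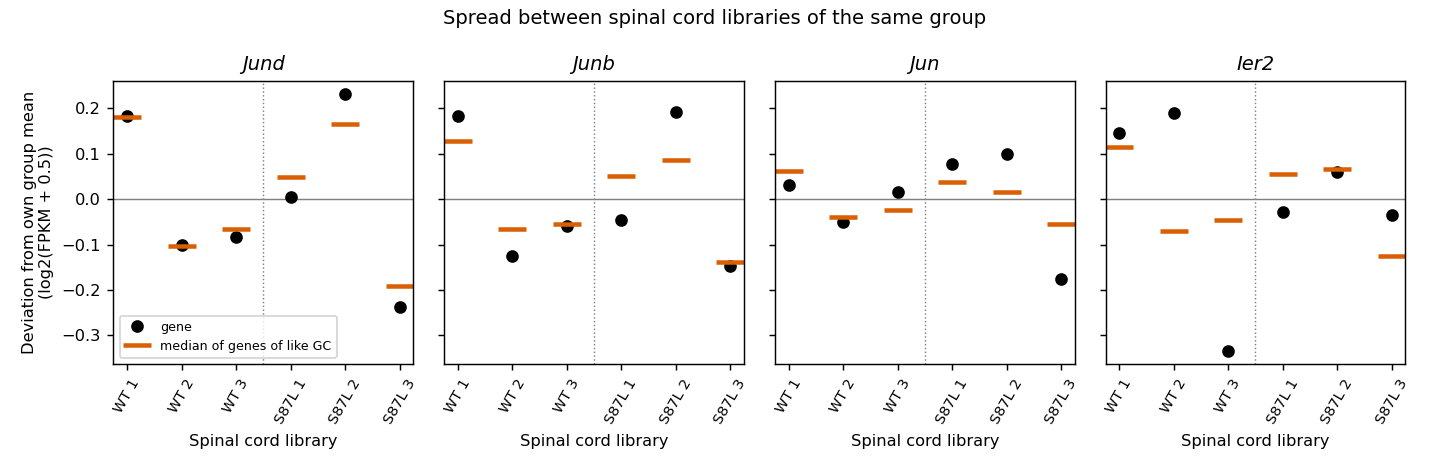
Deviation of each spinal cord library from its own group mean (vertical axis, log2(FPKM + 0.5)) for Jund, Junb, Jun and Ier2 (black points) and the median deviation of genes within 1 percentage point of GC content, the gene itself included (orange bars), by library (horizontal axis, 3 wild-type and 3 S87L). Jund follows its neighbours, from 0.23 in S87L replicate 2 to -0.24 in S87L replicate 3, while Ier2 in wild-type replicate 3 lies away from them.

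Egr1 (chr18:34859823-34864984), a zinc finger factor switched on by growth factors and by neuronal activity, was not called in either tissue. Wild-type cord held 6.99, 5.52 and 6.02 FPKM and S87L cord 5.68, 5.39 and 4.98. The lowest wild-type library lay below the highest S87L library (log2 fold change -0.19, 95% interval -0.39 to 0.02, adjusted p = 0.208). In MEF, 31.9, 31.2 and 29.8 FPKM in wild-type compared with 29.9 and 29.6 in S87L (log2 fold change -0.06, 95% interval -0.16 to 0.05, adjusted p = 0.462).

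Ier2 (chr8:84661331-84662852) encodes a small early response protein. In cord it stood at 2.83, 2.93 and 1.88 FPKM in wild-type and at 2.93, 3.15 and 2.92 in S87L, with wild-type replicate 3 standing apart on 42 recovered reads (log2 fold change 0.22, 95% interval -0.10 to 0.54, adjusted p = 0.333). Without that library the log2 fold change was 0.05. MEF values overlapped, at 30.3, 27.5 and 26.9 FPKM in wild-type and 26.6 and 32.8 in S87L (log2 fold change 0.07, 95% interval -0.18 to 0.31, adjusted p = 0.713).

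Zfp36 (chr7:28376784-28380253) showed the largest change of the 8 genes tested in cord. It stood at 1.72, 1.73 and 2.09 FPKM in wild-type libraries. In S87L libraries it stood at 3.47, 2.97 and 3.07 FPKM. The groups were well apart, and the counts behind them were 89 to 108 and 199 to 237 recovered reads a library. The log2 fold change was 0.65 (95% interval 0.45 to 0.85, SE 0.09, limma adjusted p = 0.00472), and 2.22% of the genes tested in cord had a smaller p. It was called without any 1 of the 6 libraries (adjusted p up to 0.0241, log2 fold change 0.59 to 0.72) and in every other setting run (0.55 to 0.80). Skeletal muscle, meningeal and microglial marker sums were higher in the same libraries (18.3 to 23.5 against 83.0 to 89.8 FPKM for muscle), and their part in the rise was not tested. The antisense gene Gm44710, which overlaps Zfp36, stood at 0.586 to 1.01 FPKM in wild-type and 0.841 to 1.02 in S87L cord (log2 fold change 0.20, adjusted p = 0.39). The sources used here do not say whether the authors counted by strand, so overlapping genes of opposite strands may share reads.

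In MEF, Zfp36 was higher than in cord and was not called between genotypes, at 7.07, 7.42 and 7.10 FPKM in wild-type and 7.29 and 7.38 in S87L (log2 fold change 0.03, 95% interval -0.10 to 0.15, adjusted p = 0.783). The effects in the tissues differed, with an interaction of -0.62 (SE 0.10, limma adjusted p = 0.00380) that was called in every setting run (adjusted p up to 0.0210, log2 -0.79 to -0.53). Over all genes 13.1% of interactions were called. Zfp36 and, with the dependence on settings given above, Fosl1 were the 2 of 9 genes tested whose interaction was called.

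**Figure D3:**
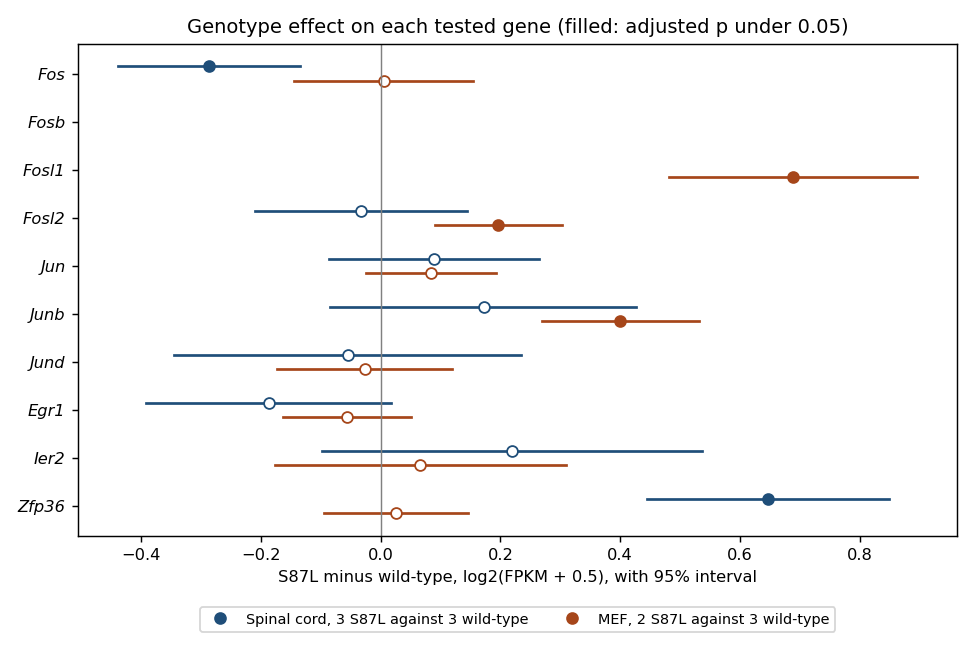
S87L minus wild-type difference in log2(FPKM + 0.5) with its 95% interval (horizontal axis) for each of the 10 genes (vertical axis), in spinal cord (blue) and MEF (brown); filled points have an adjusted p under 0.05, and genes below the filter have no point. Zfp36 stands at 0.65 in cord and 0.03 in MEF, and Fosl1, Junb and Fosl2 stand at 0.69, 0.40 and 0.20 in MEF.

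Since FPKM is per length, the 7 subunits could be set side by side as shares of their summed FPKM. This is a description per library, with no test. Jund made up 71.4% to 75.2% of the sum in cord libraries and Jun 13.2% to 16.4%, while all Fos family members made up 5.45% to 7.62%. Fos was 72.3% to 76.2% of the Fos family in wild-type cord and 70.2% to 71.1% in S87L cord. In MEF Jund took 51.2% to 52.4% in wild-type and 46.0% and 48.3% in S87L, and the Fos family 16.5% to 17.7% and 17.9% and 19.8%. Within the MEF Fos family Fosl2 dominated, at 72.4% to 73.9% in wild-type and 70.3% and 70.4% in S87L. Fosl1 took 11.7% to 13.6% of it in wild-type and 17.7% and 18.4% in S87L. Junb took 14.4% to 15.3% of the Jun family in wild-type MEF and 18.8% and 18.9% in S87L MEF. In cord Junb took 4.95% to 5.23% of the Jun family in wild-type and 5.62% to 6.15% in S87L.

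**Figure D4:**
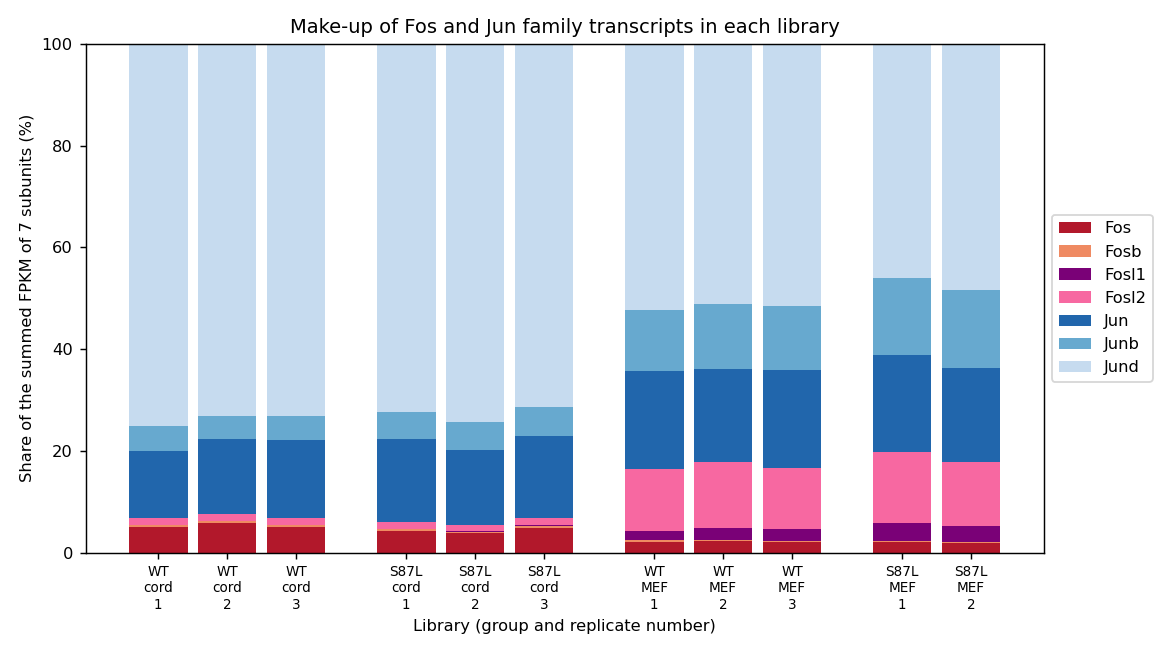
Share of each of 7 Fos and Jun family genes in their summed FPKM (vertical axis, percent) in each of the 11 libraries (horizontal axis, group and replicate number). Jund takes 71.4% to 75.2% in cord and 46.0% to 52.4% in MEF, and Fosl2 widens from 1.29% to 1.53% in cord to 12.1% to 13.9% in MEF.

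Wild-type MEF and wild-type cord differed in 9 of the 10 genes, all tested, with 8 higher and 1 lower in MEF, where 87.6% of all 15962 genes tested were called, and groups did not overlap for 88.46% of them. A count of 9 in 10 is close to that background, and no share by direction is given beside the 8 and the 1. Fosl1 passed the filter through MEF alone, so it could be called only as higher there. On the log2 scale Fosl2 was higher in MEF by 3.56, Ier2 by 3.25, Egr1 by 2.24, Junb by 2.03, Zfp36 by 1.72 and Jun by 1.12 (SE 0.04 to 0.14, limma adjusted p at most 6.34e-07). For Fosl1 the ratio of recovered reads, scaled by the library size used in FPKM, was 147 (386 against 3 reads, 95% interval 49.9 to 715, counting error only). Fos was lower in MEF, by -0.50 (SE 0.07, adjusted p = 1.93e-04). Jund was higher by 0.22 (adjusted p = 0.0253), a call lost without wild-type cord replicate 2 (0.0842) or 3 (0.0856) or wild-type MEF replicate 1 (0.0696) or 3 (0.0577), and with quantile normalization (0.10, adjusted p = 0.248). Fosb did not pass (-0.14, adjusted p = 0.339), and quantile normalization turned it to 0.69 (adjusted p = 9.10e-04). The median of all genes was -0.12 as deposited, 0.15 after quantile normalization and 0.18 after removal of the GC and length trend, so values near these shifts show no direction.

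The order of levels differed between tissues too. In wild-type cord Jund and Jun led, Fos, Egr1 and Junb followed with overlapping libraries, then Ier2, Zfp36 and Fosl2 with neighbours that overlapped, and Fosb and Fosl1 came last, each apart. Wild-type MEF had Jund, Jun, Egr1, Ier2, Junb, Fosl2, Zfp36, Fosl1, Fos and Fosb, with overlap between Egr1 and Ier2, between Junb and Fosl2, and between Fosl1 and Fos. S87L MEF placed Junb after Jun, apart from Fosl2 after it, and Fosl1 above Zfp36.

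Partners and relatives of AP-1 were taken from lists of known genes, chosen with earlier results of these data known, so their counts are descriptions beside the background. Some genes stand on several lists, among them Maff, Dusp1, Ptgs2, Ier3 and Vegfa, so the counts of the lists are not separate results. Among 10 AP-1 partners and related bZIP factors 8 were tested in each tissue, and limma called 2 higher in cord and 1 higher in MEF. Of all genes tested, 5.17% and 4.91% were called higher. The counts were 0 to 2 and 0 without any 1 library. Medians were 0.07 and -0.03 on the log2 scale, against -0.02 and -0.01 for all genes. The small Maf proteins Maff and Mafk, which lack a transactivation domain, rose in cord from 1.44 ± 0.165 to 2.11 ± 0.148 FPKM and from 5.36 ± 0.493 to 6.83 ± 0.395 (SD, n = 3 each, limma adjusted p = 0.0202 and 0.0291). The Maff call was lost without wild-type cord replicate 2 or S87L cord replicate 1 or 2 (adjusted p 0.0537 to 0.0818), and that of Mafk without S87L replicate 1 or 2 or wild-type replicate 2 or 3 (0.0866 to 0.101). Atf2, a bZIP partner of JUN, rose in MEF from 7.07 ± 0.392 (SD, n = 3) to 8.68 ± 0.175 FPKM (n = 2, limma adjusted p = 0.0349), a call lost when any library was left out (0.0644 to 0.115).

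Of 19 other immediate early transcription factors, 16 were tested in cord, with 3 higher and 1 lower, and 17 in MEF, with 4 higher and 2 lower. Of all genes tested, 12.9% were called in cord and 11.2% in MEF. The 4 calls in cord came to 0 to 4 without any 1 library, to 1 with no filter and to 6 once the GC and length trend was removed, and the 6 in MEF to 1 to 5, 2 and 7. Klf2, a Krüppel-like factor of endothelium and quiescent cells, went opposite ways, from 5.91 ± 0.162 to 8.27 ± 1.27 FPKM in cord (limma adjusted p = 0.0276) and from 18.1 ± 0.196 to 14.0 ± 1.63 in MEF (0.0255), and the interaction was called (-0.81, adjusted p = 0.00388). Leaving out any wild-type replicate or S87L replicate 1 ended its cord call (0.0582 to 0.0832), and leaving out any wild-type replicate ended its MEF call (0.0807 to 0.0856). Egr3, a relative of Egr1, fell in cord from 1.59 ± 0.141 to 1.17 ± 0.0245 FPKM (limma adjusted p = 0.0362), a call lost without any library except wild-type replicate 1 (0.0891 to 0.123). In MEF it was higher, at 1.23 ± 0.0660 FPKM in wild-type and 1.85 ± 0.129 in S87L (limma adjusted p = 0.0328), a call lost when any library was left out (0.0574 to 0.130). The Egr3 interaction held without any 1 of the 11 libraries (0.77, limma adjusted p = 9.22e-04). Csrnp1 rose in both tissues, by 0.41 in cord (limma adjusted p = 0.0409, lost without any library except wild-type replicate 1, 0.0815 to 0.134) and by 0.41 in MEF (0.0236, lost without any library except wild-type replicate 2, 0.0517 to 0.0857). In MEF Klf6 rose by 0.27 (limma adjusted p = 0.0164, lost without any wild-type replicate, 0.0618 to 0.0762) and the survival gene Ier3 by 0.31 (0.0104, lost without wild-type replicate 2, 0.0509).

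The other immediate early effectors moved the most in cord, where limma called 9 of 19 tested genes higher and none lower (median 0.19), against 5.17% of all genes called higher. The count was 5 to 8 without any 1 library. Sgk1, a kinase induced by serum and glucocorticoids, rose from 58.3 ± 0.441 to 96.0 ± 2.24 FPKM (limma adjusted p = 4.88e-05). Ccn2, a matrix protein of fibroblasts, rose from 5.36 ± 0.352 to 8.99 ± 0.346 (7.79e-04), Nfkbia, the NF-kB inhibitor, from 29.9 ± 2.10 to 47.7 ± 2.2 (9.10e-04) and Errfi1, a feedback inhibitor of EGF receptors, from 28.5 ± 0.800 to 41.9 ± 0.677 (3.02e-04; SD, n = 3 each). These 4 calls held without any 1 library. Summed muscle markers (83.0 to 89.8 FPKM) and meningeal markers (47.8 to 50.1) were higher in the same S87L libraries, and their part was not tested.

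In MEF, limma called 5 of 20 effectors higher (median 0.11), against 4.91% of all genes called higher. The count was 4 to 6 without any 1 library, 8 once the GC and length trend was removed, and 2 with a term for replicate number. Ptgs2, the inducible prostaglandin synthase, rose from 8.83 ± 0.292 (SD, n = 3) to 18.4 ± 1.28 FPKM (n = 2, limma adjusted p = 7.28e-04). Errfi1 rose by 0.64, Nfkbiz by 0.57 and Sgk1 by 0.46 on the log2 scale (limma adjusted p = 9.86e-04, 0.00529 and 0.00997), and the 4 calls held without any 1 library. With the term for replicate number Nfkbiz (limma adjusted p = 0.0716) and Sgk1 (0.0578) were not called. Sgk1 and Errfi1 were thus called higher in both tissues.

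Upstream of AP-1, limma called 0 of 15 serum response and cAMP response factors in either tissue, with 1 in cord and 5 in MEF at an unadjusted p under 0.05, and voom on recovered reads called 1 and 6. Of 18 MAP kinases and their activators tested, 1 was called in cord and 0 in MEF, against 12.9% and 11.2% of all genes. At an unadjusted p under 0.05 there were 2 and 4, and voom called 1 and 4. The cord gene was Mapk11, p38 beta, which fell from 6.77 ± 0.380 to 5.29 ± 0.508 FPKM (SD, n = 3 each, limma adjusted p = 0.0305), a call lost without any library except S87L replicate 1 (0.0511 to 0.0916). MAP kinase phosphatases and feedback inhibitors showed 3 of 13 higher in cord and 2 of 13 in MEF, where 5.17% and 4.91% of all genes were called higher. Those counts were 1 to 2 and 0 to 2 without any 1 library, 1 and 0 with no filter, and 4 and 4 once the GC and length trend was removed. Dusp6, the ERK phosphatase, rose in cord from 7.81 ± 0.130 to 10.2 ± 0.587 FPKM (limma adjusted p = 0.00596), which held without any 1 library. Dusp1 rose by 0.29 in cord (limma adjusted p = 0.0273, lost without any library except S87L replicate 3, 0.0559 to 0.0839) and Spred1 by 0.27 (0.0219, lost without S87L replicate 2 or 3, 0.0626 to 0.0762). In MEF Dusp5 rose by 0.39 (limma adjusted p = 0.0265, lost when any library was left out, 0.0522 to 0.0819) and Spred1 by 0.20 (0.0473, lost without any library except S87L replicate 2, 0.0962 to 0.161).

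Around ZFP36, 1 of 11 tested relatives and mRNA decay partners was called higher in each tissue, against 5.17% of all genes in cord and 4.91% in MEF. In cord it was Ybx1 (0.25, limma adjusted p = 0.0180, lost without S87L replicate 1 or 2, 0.0673 to 0.0727). In MEF it was the deadenylase Cnot7 (0.30, limma adjusted p = 0.0380, lost without any library except S87L replicate 2, 0.0831 to 0.121). Of 12 messages known to be bound by ZFP36, mostly cytokines, only 3 passed the filter in cord, where Zfp36 rose. One of them, the angiogenic factor Vegfa, fell from 13.1 ± 0.0518 to 9.22 ± 0.217 FPKM (SD, n = 3 each, limma adjusted p = 6.41e-04), which held without any 1 library. Of all genes tested in cord, 7.71% were called lower. In MEF 5 passed, and Ptgs2 and Ier3 were called higher, as were 4.91% of all genes.

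Genes known as AP-1 targets, among them matrix proteases and adhesion molecules, were the list with the most calls in MEF. Limma called 8 of 17 tested targets higher and none lower in S87L MEF (median 0.19), against 4.91% of all genes called higher, and 6 to 8 without any 1 library. The count was 13 once the GC and length trend was removed, and 2 with a term for replicate number in the fit. The collagenase Mmp13 rose from 3.15 ± 0.0507 to 8.01 ± 0.867 FPKM, the matrix protein Spp1 from 168 ± 3.08 to 338 ± 3.43, the hyaluronan receptor Cd44 from 57.6 ± 0.797 to 81.2 ± 3.12 and the gap junction gene Gja1 from 23.2 ± 0.0472 to 31.4 ± 1.20 (SD, n = 3 and 2, limma adjusted p = 8.15e-04, 1.34e-04, 0.00171 and 0.00275). These 4 calls held without any 1 library. With a term for replicate number Cd44 (limma adjusted p = 0.0518) and Gja1 (0.0611) were not called. In cord limma called 0 of 12 tested targets higher and 2 lower, against 5.17% and 7.71% of all genes. At an unadjusted p under 0.05 there were 4 of the 12. The 2 called lower were Vegfa and Cd44, which fell from 5.45 ± 0.199 to 4.38 ± 0.156 FPKM (SD, n = 3 each, limma adjusted p = 0.0132, 0.0574 without S87L replicate 2). In S87L MEF the fibroblast marker sum was 4333 to 4578 FPKM against 4774 to 4799 in wild-type (3 of 10 called lower), and that of microglia and macrophage genes 223 to 236 against 264 to 268 (2 of 11 called lower). The meningeal and fibroblast genes summed to 3302 to 3566 FPKM against 3809 to 3834 (4 of 9 called lower), and the endothelial and pericyte genes to 115 to 118 against 128 to 131 (1 of 7 called higher, 2 lower). Of all genes tested in MEF, 4.91% were called higher and 6.32% lower. The part of these marker differences in the MEF results was not tested.

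**Figure D5:**
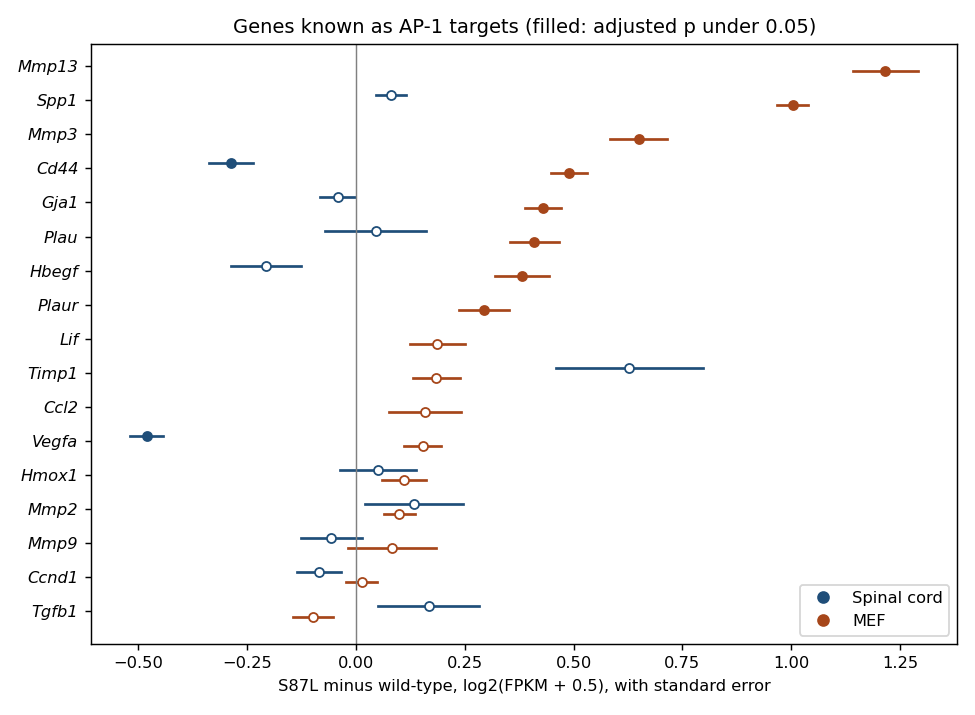
S87L minus wild-type difference in log2(FPKM + 0.5) with its standard error (horizontal axis) for genes known as AP-1 targets that passed the filter (vertical axis), in spinal cord (blue) and MEF (brown); filled points have an adjusted p under 0.05. In MEF 8 of 17 are filled and all 8 lie to the right of 0, with Mmp13 at 1.22, and in cord Vegfa at -0.48 and Cd44 at -0.29 are filled.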

How the data were processed

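RNA-seq libraries of 11 samples in 4 groups were analysed from the FPKM values that the authors deposited. The submitters' processing notes name GRCm38 as the build and list HTSeq 0.11.3, Picard 2.25.5, HISAT2 2.2.1 and Trimmomatic 0.39. The sources used here do not give the annotation release, the role of each tool or the use of strand in counting. The library kit was a directional one, per the labels' protocols. Library titles gave group and replicate number.

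Symbols and coordinates came from GENCODE vM21 (GRCm38), where 55227 of 55487 identifiers matched. Whole reads were recovered from the FPKM steps for 98.5% to 98.6% of values per library, within 0.05 of a whole number, and used for depth, counting intervals and voom. Intervals and floors (3 reads) cover counting error only.

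Log2(FPKM + 0.5) was fitted in R 4.3.3 by limma 3.58.1, with trend and robust set, over genes whose mean FPKM reached 0.5, each tissue alone, with adjustment over all genes tested. Interactions came from a fit of all 11 libraries. The code was tested on simulated data. Alternatives were quantile or median ratio scaling, pseudocounts of 0.1 and 1, a higher or no filter, removal of the GC and length trend, a replicate block, library weights, voom and leaving out each library.

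All 10 genes are named, and up to 4 called genes per list and tissue with the smallest p, from 9 pathway lists. From 7 lists of cell type markers, sums or counts stand beside the results they move with. The genes and lists were chosen with earlier results of these data known. Promoter windows came from RefSeq (GRCm38.p6), and the longest 3′ UTR of each gene from GENCODE.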

Additional observations from a re-analysis of the deposited data

Results flagged for a closer look

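For 16 of the genes named above the limma interaction test between MEF and spinal cord was called, as it was for 13.1% of all genes tested. The values are the MEF effect minus the cord effect on the log2(FPKM + 0.5) scale. Among the 10 genes, Zfp36 had -0.62 and Fosl1 0.59. Fosl1 entered that fit through MEF alone, since cord libraries held 0 to 4 of its reads, and its value lost the call without S87L MEF replicate 1 (adjusted p = 0.0574) and turned to -0.17 with voom, so no difference between tissues is drawn from it. Among immediate early transcription factors and partners, Klf2 had -0.81 (adjusted p = 0.00388), Egr3 0.77 (9.22e-04), Ier3 0.50 (0.00564), Mafk -0.35 (0.0458) and Atf2 0.27 (0.0414). Among effectors Ptgs2 had 1.11 (1.94e-04), though it was below the filter in cord and had no cord test of its own. For the others the values were -0.72 for Nfkbia (0.00198), 0.59 for Nfkbiz (0.00870), -0.59 for Ccn2 (6.17e-04) and -0.25 for Sgk1 (0.0422). The Nfkbiz call held without any 1 library, but its limma adjusted p reached 0.0766 in another setting run. Among known AP-1 targets Spp1 had 0.92 (3.20e-06), Cd44 0.78 (3.45e-05), Vegfa 0.63 (4.39e-05) and Gja1 0.47 (5.51e-04). The calls of Mafk and Atf2 were each lost without any of 8 libraries, all but wild-type cord replicate 1, S87L cord replicate 3 and wild-type MEF replicate 2 (adjusted p up to 0.124 and 0.119), and that of Sgk1 without any of 10, all but S87L MEF replicate 1 (up to 0.125).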

How the results depend on the processing

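Of 661 values of the 10 genes recomputed under alternatives, 626 kept their side of the threshold and their direction where called, 27 lost a call, 6 gained one and 2 reversed, the interaction of Fosl1 with voom (-0.17) and the wild-type tissue difference of Fosb with quantile normalization (0.69). The number of genes called in cord (2) was 1 with no filter and 1 with quantile normalization, and 1 to 2 with 1 library left out. In MEF (3) it was 2 with any 1 library left out. With the replicate block it was 0 by limma (Fosl1 adjusted p = 0.0573, Junb 0.0665, Fosl2 0.243), with 3 at an unadjusted p under 0.05. Voom without the block called 3. With the replicate block and the GC and length trend removed limma called 1, Junb. Deviations of same-numbered libraries had correlations of -0.05 to 0.14 in cord, beside -0.19 to 0.09 for libraries of different number. For MEF they were -0.10 and -0.05, beside -0.05 to 0.10. With 2 S87L MEF libraries, whose deviations mirror each other, and 3 in the other groups, these values cannot show whether the numbers pair libraries. In MEF the replicate block gave 2 called AP-1 targets in place of 8, 2 effectors in place of 5, and 0 other transcription factors and 0 phosphatases and feedback genes in place of 6 and 2, and Nfkbiz (adjusted p = 0.0716), Sgk1 (0.0578), Cd44 (0.0518) and Gja1 (0.0611) were among the calls not made with it. In cord it gave 1 transcription factor in place of 4, 8 effectors in place of 9 and 2 phosphatases and feedback genes in place of 3. The replicate block left 2 of the 10 genes called in cord, 2 interactions and 9 tissue differences. Called interactions (2) numbered 1 with a pseudocount of 0.1, 1 with voom, 5 with the GC and length trend removed (Fos, Fosl2 and Junb added), 3 with that and the block, and 1 to 3 with 1 library left out. Tissue differences (9) stayed at 9, or 8 to 9 with 1 library left out. Depth limits Fosl1 in cord (0 to 4 reads) and Fosb.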
